A study of Cavia porcellus with 10 samples.

Results

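Hyaluronan is a long, unbranched sugar polymer of the extracellular matrix that binds water and loosens the spacing of collagen. It is made at the plasma membrane by hyaluronan synthases, which push the growing chain out of the cell, and it is cut by hyaluronidases. Cells hold it through receptors, and secreted proteins cross-link it or fix large proteoglycans to it. In the cervix of several mammals the hyaluronan content rises toward birth, while the tissue softens and becomes distensible.

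The genes described here are the 9 rows of the deposited expression table, out of 25028, that carry the gene names HAS1, HAS2, HAS3, HYAL1, HYAL2, CD44, LYVE1, TNFAIP6 and VCAN. They were chosen by name as the hyaluronan synthases, the hyaluronidases, the receptors and the binding proteins, and the rule uses no threshold on a measured value. Each name matched a single row. The table comes from RNA sequencing of the cervix of female Hartley guinea pigs (Cavia porcellus), an outbred strain, with 3 non-pregnant animals (NP), 3 animals at mid-term (MT) and 4 at late term (LT). The study describes the NP animals as in estrus and the LT animals as not yet in labor. It gives a gestation age of 43.6 ± 0.5 days for MT and of 65.2 ± 1.2 days for LT (SD). No transgene or drug treatment is given for any animal. The vaginal portion of the cervix was taken whole, and each library was made from polyadenylated RNA of 1 animal. Markers of fibroblasts summed to between 5159 and 10602 TPM in an animal and those of smooth muscle to between 6638 and 22638 TPM, and markers of epithelium, vessels and leukocytes were detected as well.

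Between 18730665 and 27881572 reads were counted on genes in an animal. Abundance is given as TPM, transcript abundance scaled to the same total in each animal, in which the reads of a gene are divided by its length, so that levels can be set side by side between genes as well as between animals. Changes were tested with limma on log2(TPM + 1) for the 12645 genes whose mean reached 3 TPM in 1 stage or more, the level below which the study regards a gene as not expressed. A gene is called changed when its adjusted P, by the Benjamini-Hochberg method over all these genes, is under 0.05. The log2 fold change (log2FC) is that of TPM + 1, later stage minus earlier stage, and understates the change of weakly expressed genes. It is given with its standard error (SE). The median log2FC over all tested genes was -0.14 from NP to MT, -0.16 from MT to LT and -0.28 from NP to LT. The MT animals serve in both of the first comparisons and the NP animals in the first and the last, so the comparisons are not independent of each other. NP replicate 1 stood apart from the other NP animals. Its summed level of 7 squamous epithelium markers was 3628 TPM against 1128 and 1054 TPM in NP replicates 2 and 3. Its smooth muscle markers summed to 20355 TPM against 7809 and 6638 TPM, and its fibroblast markers to 10602 TPM against 6318 and 5860 TPM. Its macrophage markers were lower, with 61.4 TPM against 122 and 121 TPM, and so were its leukocyte markers, with 64.7 TPM against 155 and 108 TPM. Values without this animal are given for the members whose call depends on it. In bulk tissue, fewer cells of a type and less RNA per cell cannot be told apart.

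Of the 9 hyaluronan genes, 8 passed the filter on low values, and HAS1 did not. HAS3 passed it only through the NP animals. From NP to MT, 2 of the 8 were called lower, HAS3 and VCAN, and none was called higher. Over all tested genes, 12.2% were called lower and 6.27% higher in that comparison. HAS2 and LYVE1 were called higher and none lower from MT to LT, against 6.73% higher and 22.7% lower over all genes. From NP to LT, LYVE1 was called higher and HAS3 lower, against 11.2% and 41.9%. With 8 genes, these counts are a description of the members and not a test of the group. The median log2FC of the 8 genes was -0.51, 0.56 and 0.06 in the 3 comparisons.

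**Figure D1:**
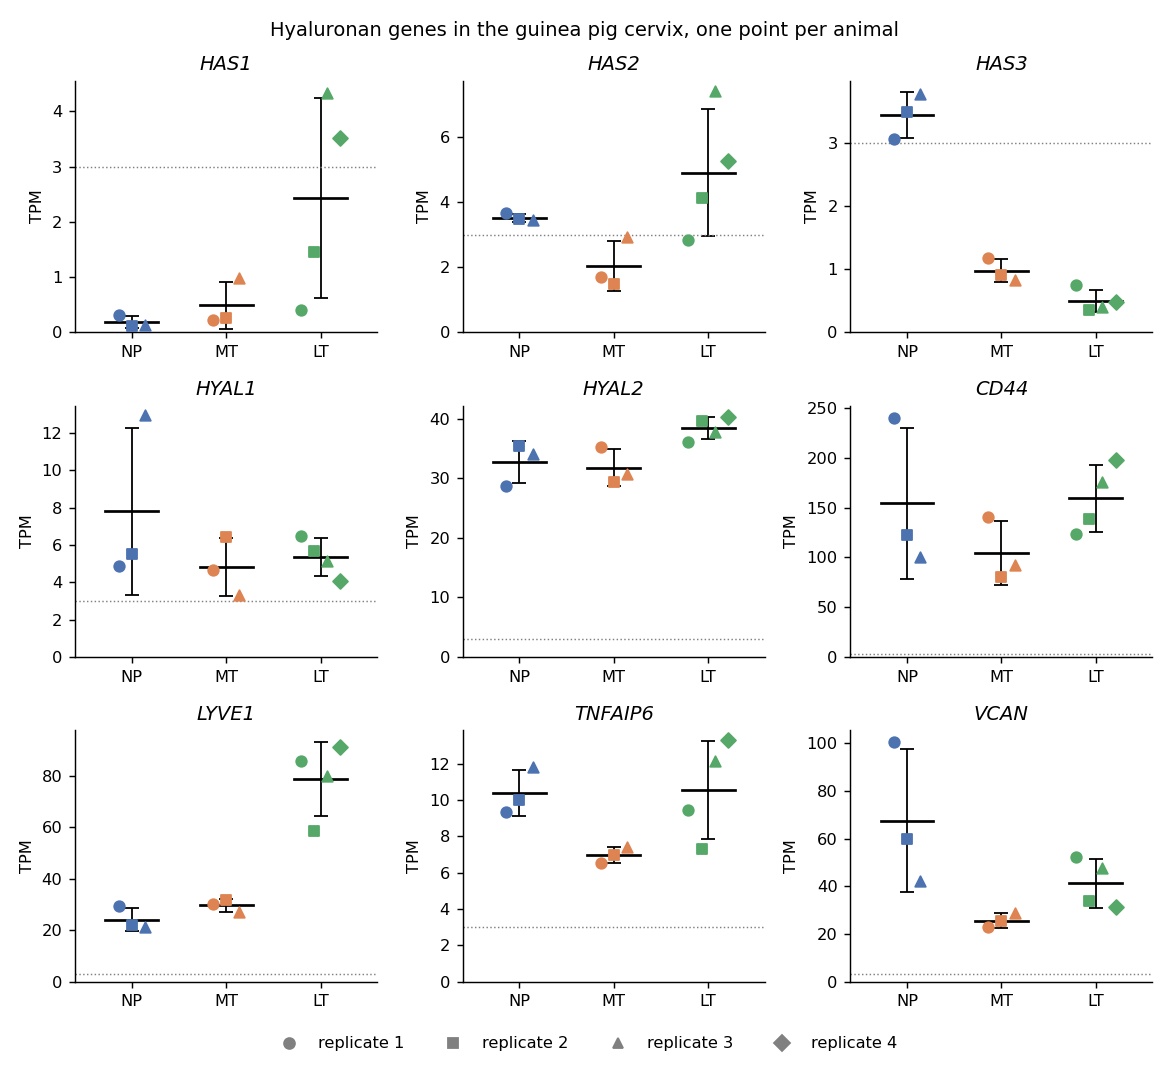
TPM of each of the 9 hyaluronan genes in every animal, by stage, on linear axes that start at 0. Symbols mark the replicate, the thick line is the stage mean, the bar is 1 SD, and the dotted line is 3 TPM. All 4 LT animals lie above all other animals for LYVE1, and all 3 NP animals lie above all other animals for HAS3.

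CD44 was the most abundant of the 9 transcripts in every animal and made up from 39.0% to 57.9% of their summed TPM. LYVE1, VCAN and HYAL2 shared the next places, from the second to the fourth, in an order that differed between animals. TNFAIP6 and HYAL1 came after them with 1.04% to 5.65% of the sum, and the synthases were last, except that HAS2 was above HYAL1 in LT replicates 3 and 4. HAS1 held place 8 or 9 in each of the 10 animals. The summed level of all 9 genes ranged from 229.7 to 420.5 TPM in NP, from 183 to 243 TPM in MT and from 289.7 to 387 TPM in LT. The highest NP value was that of replicate 1.

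The hyaluronan synthases were all weakly expressed, and each of them had a different course. HAS3 (ENSCPOG00000005980), the enzyme known for making shorter chains, had 3.05, 3.49 and 3.77 TPM in NP replicates 1 to 3. In MT replicates 1 to 3 it had 1.18, 0.909 and 0.829 TPM. In LT replicates 1 to 4 it had 0.753, 0.352, 0.396 and 0.479 TPM. Every NP animal was above 3 TPM, every pregnant animal was below it, and every LT animal was below every MT animal. From NP to MT the mean TPM fell 3.54 times. The log2FC, taken on TPM + 1 and so smaller in size, was -1.17 (SE 0.22, adjusted P = 0.00676). With edgeR on the counts it was -1.69 (adjusted P = 0.00516). From NP to LT the log2FC of TPM + 1 was -1.57 (SE 0.20, adjusted P = 0.000326). The further step from MT to LT, -0.40, was not called (adjusted P = 0.159), and the exact permutation test on square-root TPM gave P = 0.0571. DESeq2 on the counts called it (-0.79, adjusted P = 0.0427), as did limma with the filter removed (adjusted P = 0.045). The values after NP rest on few reads, from 25 to 32 in an MT animal and from 15 to 30 in an LT animal, compared with 98 to 119 in an NP animal. The fall from NP to MT and that from NP to LT were each called in all 20 alternative analyses, and without NP replicate 1 they were -1.24 and -1.64.

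HAS2 (ENSCPOG00000012474), which makes the longest chains and is the main synthase of many connective tissues, had its lowest mean at mid-term. It was at 3.66, 3.46 and 3.43 TPM in NP, with a standard deviation of only 3.52% of the mean. The MT animals had 1.69, 1.49 and 2.92 TPM, all below the NP animals. The LT animals had 2.82, 4.13, 7.41 and 5.26 TPM. The fall from NP to MT was not called (log2FC -0.60, adjusted P = 0.163). From MT to LT HAS2 rose 2.41 times in the mean, with a log2FC of 0.93 (SE 0.27, 95% confidence interval 0.33 to 1.53, adjusted P = 0.0275). LT replicate 1 lay below MT replicate 3, so the 2 groups overlap, and the exact permutation test gave P = 0.0857. This call was lost without MT replicate 1 (adjusted P = 0.075), MT replicate 2 (0.106), LT replicate 3 (0.0676) or LT replicate 4 (0.0685), and the log2FC then lay between 0.74 and 0.88. The change from NP to LT was not called (log2FC 0.33, 95% confidence interval -0.27 to 0.92, adjusted P = 0.323).

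HAS1 (ENSCPOG00000022257), the synthase generally regarded as the least active, had a mean below 3 TPM in every stage and was therefore outside the test above. In NP it had 0.317, 0.108 and 0.128 TPM, which are 12, 3 and 4 reads. In MT it had 0.223, 0.257 and 0.974 TPM, or 6, 7 and 36 reads. In LT it had 0.406, 1.45, 4.34 and 3.52 TPM, or 16, 61, 184 and 138 reads. Each LT animal was higher than each NP animal, but LT replicate 1 was below MT replicate 3, and LT replicates 3 and 4 were the only animals of the 10 above 3 TPM. With the filter removed, limma gave a log2FC of 1.35 from NP to LT (adjusted P = 0.0281) and of 1.06 from MT to LT (adjusted P = 0.105). On the read counts, edgeR gave 3.95 (adjusted P = 0.00809) and 2.48 (adjusted P = 0.0563), and DESeq2 gave 3.99 (adjusted P = 2.28e-05) and 2.51 (adjusted P = 0.0113). The exact permutation test gave P = 0.0571 from NP to LT and P = 0.114 from MT to LT. Without LT replicate 1 the change from MT to LT was 1.43 (limma adjusted P = 0.022). The 4 LT animals differed by up to 10.7 times in this gene, more than in any other of the 9.

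Summed over the enzymes, the synthase transcripts were at 7.14 ± 0.167 TPM in NP (SD, n = 3), 3.49 ± 1.09 TPM in MT (SD, n = 3) and 7.83 ± 3.61 TPM in LT (SD, n = 4). The 3 NP animals lay within the range of the LT animals in this sum, from 3.98 to 12.1 TPM, but the composition differed. HAS3 made up 48.1% ± 4.18 of the sum in NP, 29.9% ± 10.9 in MT and 8.33% ± 7.16 in LT. HAS2 made up 49.3% ± 2.65, 57.6% ± 3.75 and 64.6% ± 6.80, and HAS1 2.59% ± 1.66, 12.5% ± 7.13 and 27.1% ± 12.7. Among the LT animals, replicate 1 was the nearest to mid-term in its sum of 3.98 TPM and its shares of HAS3 (18.9%) and HAS1 (10.2%). Its HAS2 share of 70.8% was the highest of all animals. LT replicates 3 and 4 had sums of 12.1 and 9.25 TPM, of which 35.7% and 38.0% were HAS1. The reads behind these sums ranged from 73 to 518 in an animal. No test was made of the sums or shares.

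**Figure D2:**
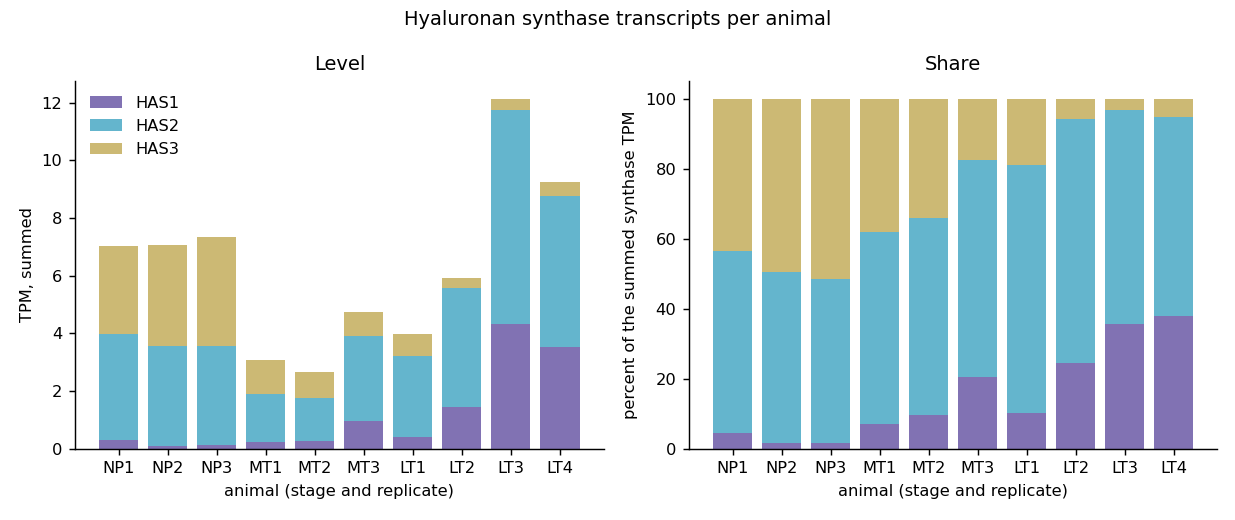
Summed TPM of the hyaluronan synthases in each animal (left) and the percent of that sum that each synthase contributed (right), from NP replicate 1 (NP1) to LT replicate 4 (LT4). The share of HAS3 lies between 43.4% and 51.5% in the NP animals and between 3.27% and 18.9% in the LT animals.

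Neither hyaluronidase was called in any comparison. HYAL2 (ENSCPOG00000005249), a membrane-anchored enzyme that cuts long chains at the cell surface, was the more abundant of the pair, with 28.7, 35.3 and 34.1 TPM in NP and 35.2, 29.3 and 30.7 TPM in MT. The LT animals had 36.1, 39.6, 37.8 and 40.3 TPM. All 4 LT animals were above all 6 others, by a small margin. The mean was 1.21 times higher in LT than in MT, with a log2FC of 0.27 (SE 0.10, adjusted P = 0.0649), which missed the threshold. From NP to LT the log2FC was 0.23 (adjusted P = 0.0743). The exact permutation test gave P = 0.0286 in both comparisons, the smallest value that 3 animals against 4 allow. HYAL2 was near the threshold, and its call depends on the analysis. From MT to LT it was called at an unchanged size with only the MT and LT animals (adjusted P = 0.0372) or without NP replicate 1 (adjusted P = 0.025), and at 0.34 without MT replicate 1 (adjusted P = 0.0465). Without NP replicate 1 the change from NP to LT was 0.14 (adjusted P = 0.198). After scaling by the median ratio of all genes, which removes the general shift, the changes from MT to LT and from NP to LT were 0.45 (adjusted P = 0.00563) and 0.55 (adjusted P = 0.000789). With edgeR on the counts they were 0.46 (adjusted P = 0.00596) and 0.56 (adjusted P = 0.000865).

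HYAL1 (ENSCPOG00000015526), the lysosomal enzyme that cuts the fragments further, had 4.89, 5.54 and 13.0 TPM in NP. It had 4.63, 6.44 and 3.34 TPM in MT and 6.49, 5.67, 5.14 and 4.05 TPM in LT. Apart from NP replicate 3 the animals of all stages overlapped. No difference between stages was called, the largest log2FC being -0.52 from NP to MT (95% confidence interval -1.25 to 0.21, adjusted P = 0.28). Without NP replicate 3 it was -0.13 (adjusted P = 0.765), and the change from NP to LT went from -0.37 to 0.02. The sum of HYAL1 and HYAL2 was 40.5 ± 6.75 TPM in NP (SD, n = 3), 36.6 ± 2.96 TPM in MT (SD, n = 3) and 43.8 ± 1.21 TPM in LT (SD, n = 4). Set against the synthase sum, it was 5.66 ± 0.827 times as high in NP, 11.2 ± 3.45 times in MT and 6.67 ± 3.19 times in LT. Every MT animal, from 7.21 to 13.4, was above every NP animal, from 4.78 to 6.41. The LT animals, from 3.54 to 10.7, overlapped both other stages. No test was made of the ratio.

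CD44 and LYVE1 are related cell-surface receptors that bind hyaluronan through a link domain. CD44 is found on many cell types, and LYVE1 is best known from lymphatic endothelium and from a part of the tissue macrophages. LYVE1 (ENSCPOG00000007811) showed the largest rise among the tested members. It had 29.2, 21.8 and 21.0 TPM in NP and 30.3, 31.8 and 26.9 TPM in MT. In LT it had 85.6, 58.3, 79.7 and 91.2 TPM. The lowest LT animal was well above the highest of the 6 other animals, whereas the NP and MT animals overlapped. The mean rose 2.65 times from MT to LT, with a log2FC of 1.36 (SE 0.16, 95% confidence interval 0.99 to 1.73, adjusted P = 0.00182). From NP to LT the log2FC was 1.67 (SE 0.16, adjusted P = 0.000119). The change from NP to MT was not called (0.31, adjusted P = 0.242). Both rises were called in all 20 alternative analyses, and leaving out any 1 animal kept the change from MT to LT between 1.28 and 1.5. The exact permutation test gave P = 0.0286 for LT against MT and for LT against NP.

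No other listed gene of lymphatic endothelium was called higher in any comparison, where 6.27%, 6.73% and 11.2% of all genes were from NP to MT, MT to LT and NP to LT, so that none among the few tested is near the background. Of 5 markers listed, PROX1, FLT4 and CCL21 had a row and were tested. From MT to LT, FLT4, a growth factor receptor of lymphatic vessels, was called lower (log2FC -0.48, adjusted P = 0.0461), a call made in 6 of 20 alternative analyses. From NP to LT, PROX1, the transcription factor of lymphatic identity, fell from 3.76 to 1.54 TPM (adjusted P = 0.00717) and FLT4 from 11 to 5.85 TPM (adjusted P = 0.00206). PROX1 passed the filter on low values only through the NP animals. CCL21, a chemokine of lymphatic vessels, had means of 499, 264 and 324 TPM in NP, MT and LT, and was called lower from NP to MT (log2FC -1.02, adjusted P = 0.0357), in 7 of 20 alternative analyses. The summed level of these markers, nearly all of it CCL21, was between 481 and 580.2 TPM in NP, between 158 and 402 TPM in MT and between 266 and 396 TPM in LT. All 3 markers of blood endothelium that were tested, CDH5, KDR and TEK, were called lower from MT to LT and from NP to LT, where 22.7% and 41.9% of all genes were, but after median-ratio scaling CDH5 was not called from MT to LT (-0.42, adjusted P = 0.0576).

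Among the markers of macrophages, 4 of 5 had a row, and 2 of these 4 were called higher from MT to LT and from NP to LT, as LYVE1 was, against 6.73% and 11.2% of all genes. CD163, a scavenger receptor for hemoglobin complexes, had 5.18, 4.19 and 3.59 TPM in NP and 6.11, 3.34 and 5.63 TPM in MT. In LT it had 20.7, 13.0, 47.3 and 30.2 TPM, so that LT did not overlap the other stages (log2FC from MT to LT 2.14, SE 0.36, adjusted P = 0.00395). MARCO, a scavenger receptor that takes up bacteria, went from at most 1.02 TPM in an NP or MT animal to 21.6, 7.93, 5.98 and 8.56 TPM in LT (log2FC from MT to LT 2.58, SE 0.36, adjusted P = 0.0022). MARCO passed the filter on low values only through the LT animals. The general macrophage markers CD68 and CSF1R were not called in any comparison. CD68 had 16.8, 75.1 and 84.8 TPM in NP, 21.4, 35.7 and 23.7 TPM in MT, and 63.1, 40.0, 68.0 and 37.1 TPM in LT, so that all LT animals were above all MT animals. NP replicate 1 was the lowest of the 10. Without it, CD68 was called lower from NP to MT (log2FC -1.57, adjusted P = 0.00666) and higher from MT to LT (0.91, adjusted P = 0.018). CSF1R had means of 38.1, 27.1 and 31.2 TPM in NP, MT and LT. The summed level of the 4 markers was between 61.4 and 122 TPM in NP, between 54.1 and 66.6 TPM in MT and between 86.6 and 158 TPM in LT. The part of macrophages in the rise of LYVE1 was not tested.

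**Figure D3:**
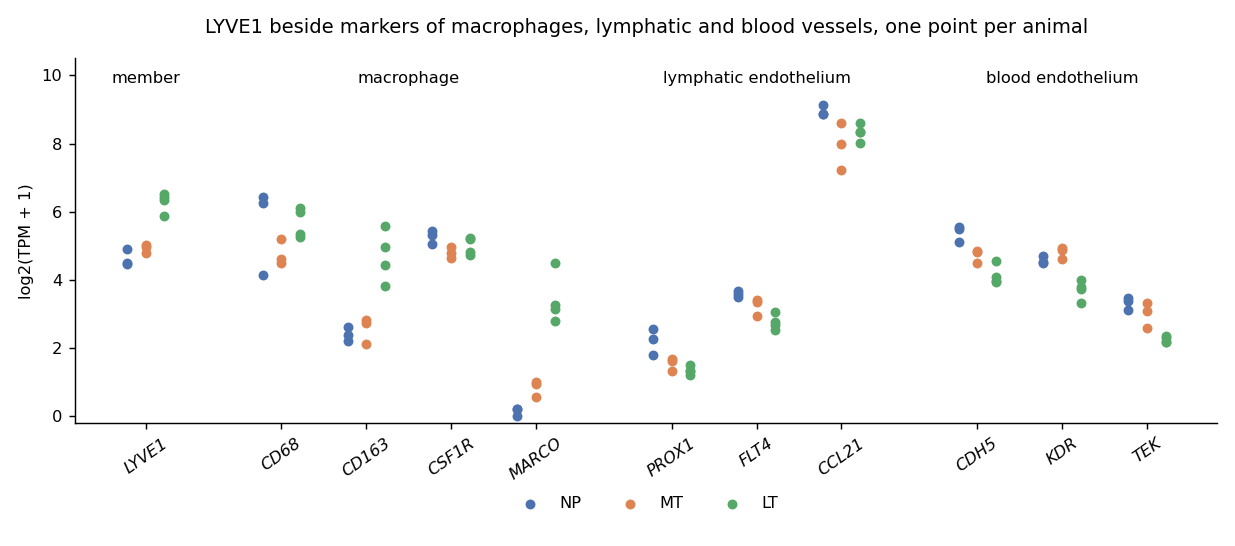
log2(TPM + 1) of LYVE1 and of the markers of macrophages, lymphatic endothelium and blood endothelium, 1 point per animal, colored by stage. LYVE1, CD163 and MARCO are higher in all 4 LT animals than in all others, while no marker of lymphatic or blood endothelium is.

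CD44 (ENSCPOG00000007792) varied widely within the stages and was not called in any comparison. It had 241, 122 and 100.1 TPM in NP and 141, 80.5 and 92.3 TPM in MT. The LT animals had 124, 139, 176 and 198 TPM. NP replicate 1 was the highest of the 10 animals, and all stages overlapped. The log2FC was -0.49 from NP to MT (95% confidence interval -1.22 to 0.23, adjusted P = 0.302) and 0.62 from MT to LT (95% confidence interval -0.06 to 1.30, adjusted P = 0.144). Without NP replicate 1, which enters the shared estimate of the spread, the change from MT to LT was called at the same size (adjusted P = 0.0464), and that from NP to MT was -0.12. Squamous epithelium is known to carry much CD44. The 7 squamous markers with a row summed to 3628 TPM in NP replicate 1, the animal with the highest CD44. They summed to between 1490.2 and 2934 TPM in LT and to between 166 and 1231 TPM in MT, where replicate 1 was the highest in both the markers and CD44. In LT the order of the 4 animals was the same for the marker sum and for CD44, and this order was also that of the smooth muscle markers, with sums of 12845, 13690, 21996 and 22638 TPM in LT replicates 1 to 4. In MT the smooth muscle sums were 9374, 14627 and 11344 TPM in replicates 1 to 3, the lowest in the animal with the highest CD44. The fibroblast marker sums were highest in replicate 1 of each stage, with 10602, 9875 and 9023 TPM in NP, MT and LT. That animal had the highest CD44 of its stage in NP and MT and the lowest in LT. The squamous sum is carried by KRT14, a keratin of the basal layer, with stage means of 1571, 548 and 2237 TPM in NP, MT and LT. TP63 did not share this course, with means of 39.2, 37.0 and 40.8 TPM, and DSG3 had 29.8, 15.3 and 58.8 TPM. Neither TP63 nor DSG3 was called in any of the 3 comparisons. Without NP replicate 1, DSG3 was called higher from MT to LT (2.35, adjusted P = 0.0263). Markers of the upper layers moved otherwise, since IVL had means of 53.3, 2.55 and 0.528 TPM and TMPRSS11D 130, 0.467 and 3.35 TPM, and SPRR3 and CRCT1 were at 0 in every LT animal. All 4 of these were called lower from NP to LT, in 20 of 20 alternative analyses, where 41.9% of all genes were called lower. IVL, SPRR3 and CRCT1 passed the filter on low values only through the NP animals. The part of squamous epithelium, smooth muscle or fibroblasts in the CD44 level was not tested.

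The binding proteins VCAN and TNFAIP6 both had their lowest mean at mid-term. VCAN (ENSCPOG00000025484) is versican, a large chondroitin sulfate proteoglycan that attaches to hyaluronan at one end and swells the matrix. It had 101, 59.9 and 42.3 TPM in NP, 22.8, 25.2 and 28.8 TPM in MT, and 52.5, 33.9, 47.6 and 31.2 TPM in LT. The MT animals lay below all others. The highest was NP replicate 1, which also had the highest sums of squamous, fibroblast and smooth muscle markers among the NP animals. Their part in this value was not tested. The fall from NP to MT had a log2FC of -1.28 (SE 0.29, adjusted P = 0.0153), and it was called in all 20 alternative analyses, at -0.96 (adjusted P = 0.0182) without NP replicate 1. From MT to LT the change of 0.64 (SE 0.27, 95% confidence interval 0.03 to 1.25) was not called (adjusted P = 0.101), although no MT animal reached an LT animal and the exact permutation test gave P = 0.0571. DESeq2 on the counts called it (log2FC 0.87, adjusted P = 0.0304), as did limma with only the MT and LT animals (adjusted P = 0.0319) or without NP replicate 1 (adjusted P = 0.0308). From NP to LT the change was -0.64 (adjusted P = 0.0714). Without NP replicate 3 it was -0.93 (adjusted P = 0.0174), without LT replicate 1 -0.77 (adjusted P = 0.0493), and without NP replicate 1 -0.31 (adjusted P = 0.253).

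TNFAIP6 (ENSCPOG00000007974), also known as TSG-6, is a secreted protein that moves heavy chains of inter-alpha-inhibitor onto hyaluronan and thereby cross-links it. It had 9.34, 9.98 and 11.8 TPM in NP and 6.54, 6.98 and 7.44 TPM in MT. In LT it had 9.44, 7.32, 12.2 and 13.3 TPM. All MT animals were below all NP animals, while LT replicate 2 fell within the MT range and the other LT animals lay above it. Neither the change from NP to MT (log2FC -0.51, SE 0.20, adjusted P = 0.0977) nor that from MT to LT (0.50, SE 0.18, adjusted P = 0.062) was called. On the counts the change from MT to LT passed with edgeR (0.79, adjusted P = 0.0282) and with DESeq2 (0.78, adjusted P = 0.00659), and with limma it passed after median-ratio scaling (0.67, adjusted P = 0.0269) and without LT replicate 2 (0.65, adjusted P = 0.0217). The means of NP and LT were 10.4 and 10.6 TPM (log2FC 0.00, 95% confidence interval -0.41 to 0.41).

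**Figure D4:**
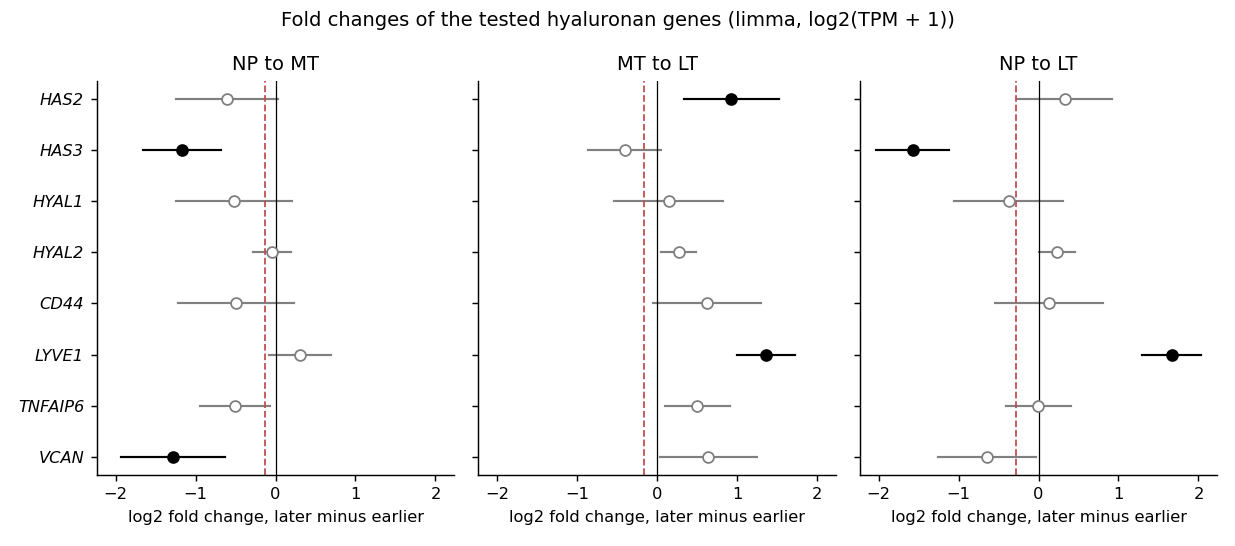
log2 fold changes on the log2(TPM + 1) scale of the 8 tested hyaluronan genes in the 3 comparisons, later stage minus earlier stage, with the 95% confidence interval of limma. Filled points are called (adjusted P under 0.05), open points are not, and the dashed line is the median of all 12645 tested genes. HAS3 and VCAN are the filled points from NP to MT, HAS2 and LYVE1 from MT to LT, and HAS3 and LYVE1 from NP to LT.

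Over the 3 stages at once, the permuted F statistic on square-root TPM (exact test over 4200 assignments of the animals, unadjusted) gave P = 0.000952 for HAS3 and for LYVE1, where 0.000476 is the smallest value possible. The same exact test gave P = 0.0276 for VCAN, 0.0362 for HAS2, 0.04 for HAS1 and 0.041 for HYAL2. For TNFAIP6 (exact P = 0.0867), CD44 (exact P = 0.304) and HYAL1 (exact P = 0.417) the test did not pass.

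The supply of hyaluronan depends on UDP-glucuronic acid and UDP-N-acetylglucosamine, the sugar nucleotides that the synthases join. Of 7 genes listed for their synthesis 6 had a row, and all of these were tested. From NP to MT, 3 of the 6 were called higher and none lower, against 6.27% and 12.2% over all genes, and from NP to LT, 4 were called higher and none lower, against 11.2% and 41.9%. Between MT and LT none was called, but 3 were called higher after median-ratio scaling and by edgeR, which called 1855 of 12565 and 1835 of 14263 genes higher. GFPT1, the rate-limiting enzyme that leads sugar into the hexosamine pathway, had 45.7, 41.5 and 42.6 TPM in NP and 105, 83.3 and 125 TPM in MT. It stayed at 108, 121, 103 and 109.6 TPM in LT. The log2FC was 1.23 from NP to MT (SE 0.13, adjusted P = 0.0007) and 1.33 from NP to LT (SE 0.12, adjusted P = 0.000103). GNPNAT1, the acetyltransferase of the next step, had stage means of 62.0, 141 and 174 TPM (NP to MT log2FC 1.16, SE 0.15, adjusted P = 0.00119). PGM3, the mutase that follows it, rose from 28.5 to 42.0 and 49.3 TPM (0.55, adjusted P = 0.0342 from NP to MT, called in 14 of 20 alternative analyses). For GFPT1, GNPNAT1 and PGM3 every pregnant animal was above every NP animal. On the branch of glucuronic acid, UGDH was called from NP to LT (0.35, adjusted P = 0.0495), but in only 9 of 20 alternative analyses, and UGP2 was not called in any of the 3 comparisons, though after median-ratio scaling it was called higher from MT to LT (0.30, adjusted P = 0.0466) and from NP to LT (0.28, adjusted P = 0.0364). GFPT2, the second form of the enzyme of GFPT1, had 11.4, 16.7 and 24.5 TPM in NP and 6.63, 8.30 and 11.4 TPM in MT, where it was lower in every animal but not called (log2FC -0.89, adjusted P = 0.146). It was named after its values were seen. These precursors also feed the glycosylation of proteins.

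**Figure D5:**
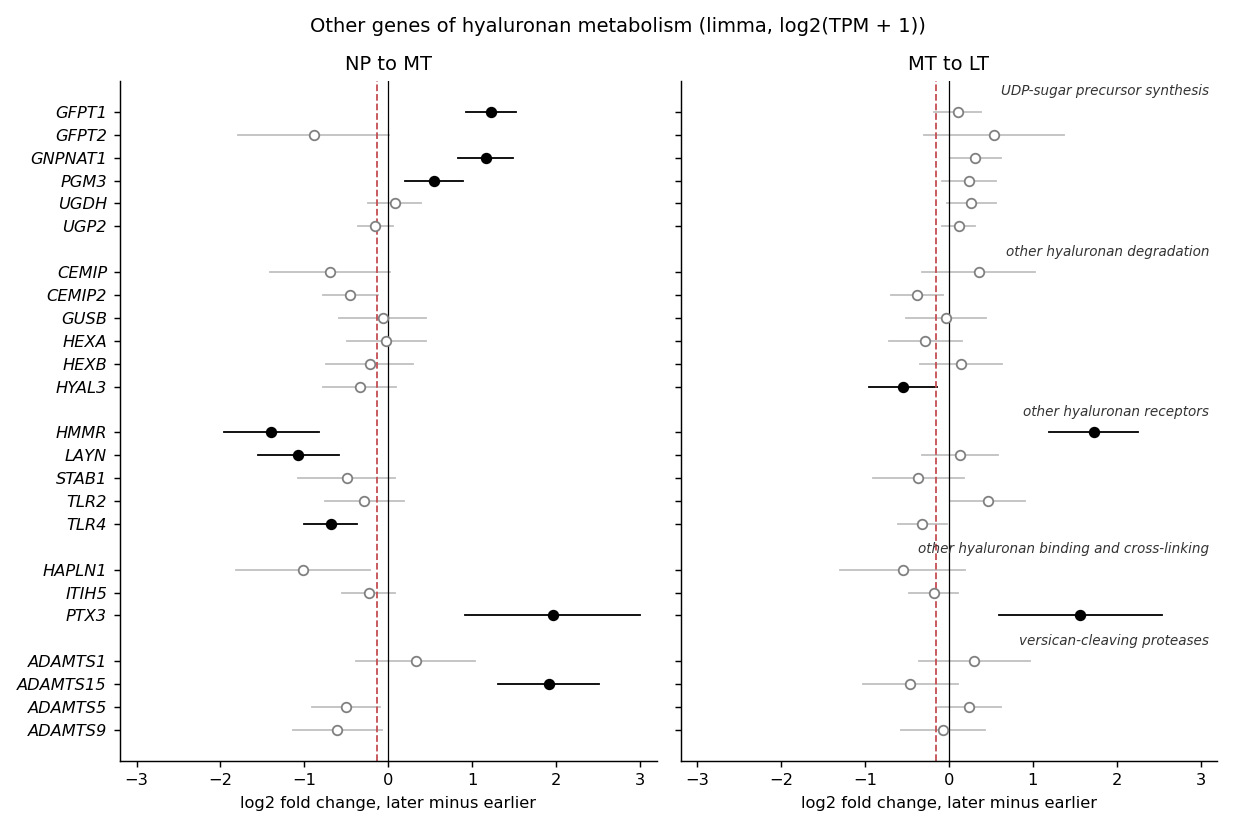
log2 fold changes on the log2(TPM + 1) scale, with the 95% confidence interval of limma, of the tested genes of hyaluronan metabolism that are not among the 9, from NP to MT (left) and from MT to LT (right). Filled points are called and the dashed line is the median of all tested genes. GFPT1, GNPNAT1, PGM3, PTX3 and ADAMTS15 are called higher from NP to MT, and HMMR and PTX3 from MT to LT.

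Of 8 further genes of hyaluronan degradation 7 had a row and 6 were tested. None was called from NP to MT, 1 was called lower from MT to LT and 2 were called lower from NP to LT, where 22.7% and 41.9% of all genes were called lower. HYAL3, a hyaluronidase of uncertain activity, had means of 4.90, 3.67 and 2.17 TPM in NP, MT and LT. It fell by 0.89 on the log2 scale from NP to LT (adjusted P = 0.00271). The fall from MT to LT (log2FC -0.55, adjusted P = 0.045) was called in only 8 of 20 alternative analyses. CEMIP2, a cell-surface protein reported to degrade hyaluronan and listed in the table as TMEM2, fell between NP and LT from 27.1 to 14.6 TPM (log2FC -0.84, adjusted P = 0.000938). Without NP replicate 1 it was also called lower from NP to MT (-0.61, adjusted P = 0.0078) and from MT to LT (-0.38, adjusted P = 0.0153). HYAL4 was listed at 0 in all animals. HEXA, a lysosomal enzyme that removes end sugars, was the most abundant gene of the list, with means of 87.7, 84.5 and 68.7 TPM, and was called lower from NP to LT only without NP replicate 1 (-0.56, adjusted P = 0.00739).

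Of 6 other hyaluronan receptors 5 were tested. From NP to MT, 3 were called lower, against 12.2% of all genes. From MT to LT, 1 was called higher, against 6.73%, and from NP to LT, 3 were called lower, against 41.9%. After median-ratio scaling, 2 were called higher from MT to LT, against 1855 of 12565 genes. From NP to LT, 1 was then called higher and 2 lower, against 3338 and 2895 of 12565 genes. HMMR, which binds hyaluronan and also the mitotic spindle, had its lowest values at mid-term, as HAS2 had. It had 6.36, 8.90 and 4.58 TPM in NP, 2.71, 1.41 and 1.49 TPM in MT, and 9.51, 8.57, 9.17 and 6.28 TPM in LT. It fell from NP to MT (log2FC -1.40, SE 0.25, adjusted P = 0.00603) and rose from MT to LT (1.72, SE 0.24, adjusted P = 0.0022), with no overlap of animals in either step. TLR4, a receptor of innate immunity that is reported to respond to hyaluronan fragments, was the most abundant of the list in NP and fell from 21.4 to 12.8 and 10.1 TPM (log2FC from NP to MT -0.69, adjusted P = 0.0099; from NP to LT -1.0, adjusted P = 0.00033). LAYN, or layilin, fell from 11.3 to 4.82 TPM from NP to MT (-1.07, adjusted P = 0.00974) and was at 5.28 TPM in LT. STAB1, a scavenger receptor of endothelium and macrophages, was called lower from NP to LT (-0.86, adjusted P = 0.0143), but not after median-ratio scaling (-0.56, adjusted P = 0.0772).

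Of 14 other genes for hyaluronan binding and cross-linking 11 had a row, but only 3 passed the filter on low values. PTX3, a pentraxin that joins the heavy chains on hyaluronan and thereby stabilizes the cross-linked matrix, had 2.42, 1.44 and 1.1 TPM in NP and 22.6, 3.73 and 8.24 TPM in MT. In LT it had 33.9, 26.4, 31.6 and 24.6 TPM. The stages did not overlap at any step, and PTX3 rose by a log2FC of 1.96 from NP to MT (SE 0.47, adjusted P = 0.0178) and of 1.56 from MT to LT (SE 0.44, adjusted P = 0.0243). It was called in 16 of 20 alternative analyses in each step. TNFAIP6, which prepares the same cross-link, was not called in either step. HAPLN1, the link protein that locks versican onto hyaluronan, had means of 9.18, 3.82 and 2.20 TPM and was called lower from NP to LT (-1.57, SE 0.33, adjusted P = 0.00346), and without NP replicate 1 also from NP to MT (-1.44, adjusted P = 0.00582). ITIH5, a heavy chain of the inter-alpha-inhibitor family and the most abundant gene of the list, fell from 192 to 143 TPM from NP to LT (-0.42, adjusted P = 0.0224), but the change was -0.09 (adjusted P = 0.639) after median-ratio scaling.

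The proteases that cut versican were listed with 6 genes, of which 5 had a row and 4 were tested. ADAMTS15 was the only one called from NP to MT, where VCAN fell and 6.27% of all genes were called higher. It had 9.92, 16.3 and 14.3 TPM in NP and 68.5, 39.9 and 53.1 TPM in MT, with a log2FC of 1.91 (SE 0.27, adjusted P = 0.00191). In LT it had 50.6, 46.6, 28.8 and 30.4 TPM, still above NP in every animal (1.45, adjusted P = 0.00127), and the step from MT to LT was not called (-0.46, adjusted P = 0.191). ADAMTS9 was called lower from NP to LT (-0.68, adjusted P = 0.0266), but not after median-ratio scaling (-0.36, adjusted P = 0.26). ADAMTS1, the most abundant of the list with means of 112, 142 and 181 TPM, was not called in any comparison, but from NP to LT it was called higher after median-ratio scaling (0.95, adjusted P = 0.0287) and by edgeR (0.97, adjusted P = 0.0294), in 5 of 20 alternative analyses.

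For the members called in at least 1 comparison, the genes with the most similar course over the 10 animals were sought among 11410 tested genes with a name, by the Pearson correlation of log2(TPM + 1). The points are the same 10 libraries for all genes and fall into 3 stages, so r is a description only. LYVE1 was most like MARCO (r = 0.95), ATP5C1 (r = 0.94) and CD163 (r = 0.94), the first and the last of which are the macrophage markers described above. HAS2 was most like ISCA1 (r = 0.93), EGLN3 (r = 0.93) and PFKP (r = 0.92). EGLN3, an oxygen-sensing prolyl hydroxylase, had means of 8.45, 3.75 and 29.1 TPM in NP, MT and LT, and PFKP, a phosphofructokinase of glycolysis, had 44.2, 30.0 and 70.5 TPM. HAS3 was most like PPM1E (r = 0.99), R3HDM1 (r = 0.99) and CAPRIN1 (r = 0.98). PPM1E, a protein phosphatase, had means of 3.91, 1.79 and 1.34 TPM. VCAN was most like CASP10 (r = 0.95), GSTO1 (r = 0.94) and BST2 (r = 0.93), of which BST2, an interferon-induced antiviral protein, had means of 320.4, 83.7 and 189 TPM.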

How the data were processed

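RNA of the cervix of 10 guinea pigs was sequenced as strand-specific single reads from polyadenylated RNA. The authors processed reads with CASAVA 1.8.2, aligned them with TopHat2 to the guinea pig genome cavPor3 (Ensembl annotation) and counted reads per gene with HTSeq 0.5.4p1. The deposited table holds these read counts and the TPM values that the authors computed from them, for 25028 genes, 20251 of them with a name. Both were used as deposited.

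TPM was tested with limma 3.58.1 (trend) on log2(TPM + 1), in 1 fit of all 10 animals with the stage as the only term, for genes whose mean reached 3 TPM in 1 stage or more. The labels call the samples biological replicates and name no batch. Single members were also compared by two-sided exact permutation tests on square-root TPM, where 3 animals against 3 cannot give a P below 0.1. Alternatives were square-root values, pseudocounts of 0.1 and 0.5 TPM, other filters, median-ratio scaling, edgeR 4.0.16 (quasi-likelihood, TMM) and DESeq2 1.42.0 on the counts, fits of only the 2 stages compared, a replicate block, and each animal left out in turn. The scripts were tested on simulated data (R 4.3.3).

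The members and the gene lists were chosen with earlier results of these data known. All 9 members are named. Of each other pathway list, the genes called in a comparison are named, at most the 4 with the lowest adjusted P, plus the most abundant gene. For each called member, the 3 most correlated named genes are given. UAP1, SPAM1, ACAN, ITIH3, AMBP, ADAMTS4, PDPN, RELN and MRC1 were not analysed here, since no row was matched to their names. A row named HYALP_CAVPO, listed at 0 in all animals, may be SPAM1 and was not counted. No nucleotide or protein sequences were used.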

Additional observations from a re-analysis of the deposited data

How the results depend on the processing

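HAS3 and VCAN from NP to MT, HAS3 from NP to LT, and LYVE1 from MT to LT and from NP to LT kept their direction and call under all 20 alternatives that refit the whole table. No member result changed its direction while called. Against 2 members called from MT to LT, median-ratio scaling called 4, edgeR 4, DESeq2 7 and the fit of only the 2 stages compared 4. Over all genes these called 3705 of 12565, 3901 of 14263, 4781 of 18100 and 4795 of 12186, against 3723 of 12645 in the fit reported above. The fit with the replicate number as a block called 1 member (HAS2 was lost, adjusted P = 0.0661) and 1693 of 12645 genes. Only LT has a replicate 4, so the block takes this animal out of the comparison. The log2FC of HAS2 was then 0.88, the same as without LT replicate 4. With 1 animal left out the count of members was 1 to 5, the highest without NP replicate 1, where 5354 of 12713 genes were called. Against 2 members called from NP to LT, edgeR and DESeq2 each called 4, beside 6733 of 14263 and 7515 of 18100 genes. With 1 animal left out the count was 2 to 4, the highest without LT replicate 1, where 6343 of 12646 genes were called. The extra members are HAS1, which only some of the alternatives tested, HYAL2, TNFAIP6, VCAN, CD44 and HAS3, each given above. The cause was not tested.

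Over all genes, the 2342 calls from NP to MT became 1103 with only the 2 stages compared and 1099 to 4202 with 1 animal left out, the lowest without MT replicate 3 and the highest without NP replicate 1. The 3723 calls from MT to LT became 1693 with the replicate block and 1944 to 5354 with 1 animal left out. The 6718 calls from NP to LT stayed within 1.5 times. Of the calls, 33.9%, 22.9% and 21.1% were higher in the 3 comparisons, against 60.7%, 50.1% and 53.6% after median-ratio scaling, so directions of small changes depend on the scaling. The deviations from the stage means of animals with the same replicate number had correlations from -0.287 to 0.254. They were positive from NP to MT (0.254, 0.162 and 0.0765) and of both signs in the other comparisons. With so few animals in a stage, these values cannot show whether the numbers pair the animals. With the block, 1577 genes were called from NP to MT and 5448 from NP to LT.

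Single members kept their side of the threshold in 477 refits or exact tests, gained a call in 25 and lost it in 7. The genes named from the other lists were refitted the same way, chosen after seeing the data, and lost their call in 166 of these refits and kept it in 1034. Exact tests from NP to MT cannot pass and were not counted. Counts under 40 reads limit HAS3 in MT and LT and HAS1 in NP, MT and LT replicate 1.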

Other observations

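The marker lists for the other cell types of the cervix moved as follows in limma. Among 4 fibroblast genes, LUM, a small collagen-binding proteoglycan, had its lowest mean at mid-term like VCAN, with stage means of 203, 126 and 243 TPM in NP, MT and LT. It was called lower from NP to MT (adjusted P = 0.0433, in 8 of 20 alternative analyses) and higher from MT to LT (log2FC 0.91, adjusted P = 0.00761, in 20 of 20). PDGFRA, a growth factor receptor of fibroblasts, had 55.1, 74.3 and 24.4 TPM and was called lower from MT to LT (log2FC -1.59, adjusted P = 0.00187). COL1A1 and COL1A2 were not called in any comparison. Of 7 squamous epithelium markers, 4 were called lower from NP to MT, namely IVL, TMPRSS11D, CRCT1 and SPRR3, against 12.2% of all genes, and KRT14 was called higher from MT to LT (2.50, adjusted P = 0.0184). Without NP replicate 1, 3 were called higher and 1 lower from MT to LT, where 1236 of all 12713 genes were called higher and 4118 lower.

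Of 2 markers of columnar epithelium, EPCAM was called higher from NP to MT (0.35, adjusted P = 0.0245, in 15 of 20 alternative analyses) and from NP to LT (0.42, adjusted P = 0.00248, in 20 of 20), against 6.27% and 11.2% of all genes. None of 5 smooth muscle markers was called from NP to MT or from MT to LT, and TAGLN was called higher from NP to LT (1.04, adjusted P = 0.0493, in 5 of 20 alternative analyses), against 11.2% of all genes. Without NP replicate 1, which had the most smooth muscle markers of the NP animals, 2 were called higher from MT to LT, DES and TAGLN. From NP to LT, 4 were called higher, DES, ACTA2, CNN1 and TAGLN. Of all 12713 genes in that refit, 1236 were called higher from MT to LT and 1429 from NP to LT. Of 6 leukocyte genes tested, none was called from NP to MT, CD3G was called lower from MT to LT (-1.36, adjusted P = 0.0377, in 13 of 20), and PTPRC, CORO1A and CD3G were called lower from NP to LT, where 41.9% of all genes were. Without NP replicate 1, which had the fewest leukocyte markers of the NP animals, 3 were called lower from NP to MT, 2 from MT to LT and 4 from NP to LT. Of all 12713 genes tested in that refit, 3289, 4118 and 6365 were called lower in these comparisons. The calls of PTPRC, CORO1A and CD3G from NP to LT were made in 18, 12 and 8 of 20 alternative analyses. After median-ratio scaling CORO1A (adjusted P = 0.0745) and CD3G (adjusted P = 0.0781) were not called and LCP1 was called higher (0.53, adjusted P = 0.0429). PTPRC, the common leukocyte antigen, had means of 15.4, 9.62 and 6.89 TPM, while CD163 and MARCO rose in the same LT animals.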
